A study of Mus musculus with 6 samples.

Results

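Serum amyloid A, orosomucoid and related acute phase transcripts were followed in mouse liver through 10 genes, namely Saa1, Saa2, Saa3, Saa4, Orm1, Orm2, Orm3, Lcn2, Hp and Hpx. They were picked by name out of 37991 gene IDs in the deposited count table, with earlier results of the same genotype comparison known. Their differences between genotypes are therefore a description of these livers, and no test of them is drawn from this comparison. The study sequenced livers of 3 Zpbp2 KO males (B6.Zpbp2-/-) and of 3 WT males (C57BL/6J), all 12 weeks old and untreated as far as the labels say. Both groups carry the C57BL/6J background, and the labels name no Cre, transgene or other allele. Zpbp2 encodes a zona pellucida binding protein of sperm. Which part of Zpbp2 the allele removes and whether the animals were littermates are points the labels leave unstated.

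Acute phase proteins are plasma proteins whose output by hepatocytes shifts in inflammation. Interleukin-6, acting through STAT3, and interleukin-1, acting through NF-kB and C/EBP factors, drive most of the induction, and glucocorticoids strengthen it. Serum amyloid A1 and A2 are the strongest responders in the mouse and travel on high-density lipoprotein, while A4 is made constitutively and A3 is made largely outside the liver, by macrophages and fat. Orosomucoids are acidic glycoproteins that bind small lipophilic ligands. Lipocalin 2 (Lcn2) traps bacterial siderophores, haptoglobin (Hp) binds free haemoglobin and hemopexin (Hpx) binds free haem.

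Library totals ran from 47821653 to 51328826 counts in Zpbp2 KO livers and from 37904891 to 52955687 in WT livers. Zpbp2 itself had 0 counts in each Zpbp2 KO library, which allows up to 3 counts a library, against 4, 13 and 7 counts in WT replicates 1, 2 and 3. Albumin, the defining hepatocyte transcript, stood at 73951 to 76934 CPM (counts divided by library size in units of 1e6 counts, on library sizes scaled by the trimmed mean of M-values) in Zpbp2 KO livers and at 66065 to 75135 CPM in WT livers. The 10 genes together took 0.660% to 0.761% of all counts in Zpbp2 KO libraries and 0.567% to 0.619% in WT libraries, with no overlap between the groups. Hp and Hpx made up most of that sum, at a mean of 6245 of 7250 CPM in Zpbp2 KO livers and 5224 of 5949 CPM in WT livers.

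The Saa genes lie together on mouse chromosome 7. Their promoters are shown because the members of one cluster stood so differently in these livers, and because of a motif they share. Each sequence runs 5′ to 3′ on the gene's own strand, from 250 bases before the annotated start to 50 after it (RefSeq, GRCm38.p6), and capitals mark the letters TTGCNNAAT, a C/EBP-like motif, on either strand. The Saa1 promoter (chr7:46742931-46743230, minus strand), that of Saa2 (chr7:46751583-46751882, plus strand), that of Saa3 (chr7:46715627-46715926, minus strand) and that of Saa4 (chr7:46732554-46732853, minus strand) read as follows.
Saa1: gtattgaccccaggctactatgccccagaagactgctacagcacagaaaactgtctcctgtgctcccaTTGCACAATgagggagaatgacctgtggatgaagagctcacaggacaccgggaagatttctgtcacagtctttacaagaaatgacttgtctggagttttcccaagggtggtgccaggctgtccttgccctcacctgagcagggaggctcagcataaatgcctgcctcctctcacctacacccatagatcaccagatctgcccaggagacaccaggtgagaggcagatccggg
Saa2: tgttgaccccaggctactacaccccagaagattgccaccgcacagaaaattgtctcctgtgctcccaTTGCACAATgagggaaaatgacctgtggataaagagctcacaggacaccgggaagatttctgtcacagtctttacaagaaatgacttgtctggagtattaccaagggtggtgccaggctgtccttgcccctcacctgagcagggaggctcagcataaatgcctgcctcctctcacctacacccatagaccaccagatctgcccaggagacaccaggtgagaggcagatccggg
Saa3: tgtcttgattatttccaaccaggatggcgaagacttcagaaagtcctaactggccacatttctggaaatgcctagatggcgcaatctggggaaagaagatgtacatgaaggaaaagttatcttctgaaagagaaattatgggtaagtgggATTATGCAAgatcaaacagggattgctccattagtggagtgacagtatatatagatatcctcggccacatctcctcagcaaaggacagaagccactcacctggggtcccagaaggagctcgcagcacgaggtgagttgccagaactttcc
Saa4: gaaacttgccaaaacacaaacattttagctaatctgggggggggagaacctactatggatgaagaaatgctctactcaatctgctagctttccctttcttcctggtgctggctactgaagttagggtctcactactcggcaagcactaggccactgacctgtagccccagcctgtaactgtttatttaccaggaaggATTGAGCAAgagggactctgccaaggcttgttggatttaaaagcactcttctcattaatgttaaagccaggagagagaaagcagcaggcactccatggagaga

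The motif stood 182 bases before the start in Saa1, 183 in Saa2, 100 in Saa3 and 53 in Saa4, counted to its first printed base. In Saa3 and Saa4 it lay on the reverse strand. Promoters of 8 of the 10 genes were in the table (not Hp and Orm1), and 4 of the 8 held this motif. Over 32851 promoters of the same length the share was 2.40%. All 4 were Saa genes of one cluster, with Saa1 and Saa2 near-identical, so they are not separate cases. The Orm2 and Orm3 promoters held TTGCGCAAG and TTGCACAAG, which differ from the motif only in the last letter and were not counted. A STAT-like motif, TTCNNNGAA, was in 0 of the 8 and in 8.30% of all promoters, and an NF-kB-like motif, GGGNNTTTC, in 0 of the 8 and in 4.36% of all. Near-misses of both were likewise not counted. Examples are TTTCTGGAA in the Saa3 promoter, a single letter from the STAT-like motif, and GGAGTTTTC in that of Saa1, a single letter from the NF-kB-like motif. These are matches of letters within a short window, both strands were searched, and no binding was measured. The Saa1 and Saa2 promoters were identical at 287 of 299 aligned bases (96.0%), and those of Saa1 and Saa4 at 149 of 252 (59.1%).

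Saa1, the main inducible serum amyloid, had 2386, 2757 and 3514 counts in Zpbp2 KO replicates 1, 2 and 3, against 855, 1355 and 1086 counts in WT replicates 1, 2 and 3. These were 49.9, 60.4 and 67.3 CPM in Zpbp2 KO livers and 16.3, 25.3 and 28.5 CPM in WT livers. Every Zpbp2 KO liver lay above every WT liver, with means of 59.2 ± 8.78 CPM in Zpbp2 KO and 23.3 ± 6.31 CPM in WT livers (SD, n = 3 each). The log2 fold change of Zpbp2 KO over WT was 1.34 ± 0.208 (edgeR estimate ± SE). In bulk liver, a difference in RNA per cell and a difference in the number of cells that make it cannot be told apart.

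Saa2, the near-identical neighbour of Saa1, stood at 15.2, 24.9 and 23.9 CPM in Zpbp2 KO livers and at 6.14, 8.33 and 12.4 CPM in WT livers. The groups did not overlap, and the log2 fold change was 1.26 ± 0.277. The coding transcripts of Saa1 and Saa2 were identical at 572 of 606 aligned bases (94.4%). Neither shared a stretch of 100 bases, the length of 1 read, with a transcript of another gene (0 of 510 windows in Saa1 and 0 of 507 in Saa2). Shorter stretches are shared, so how the counting treated reads that fit both genes can move either level. Summed over both genes, the level was 65.1, 85.3 and 91.2 CPM in Zpbp2 KO livers and 22.4, 33.6 and 40.8 CPM in WT livers, and the ratio of the group means was 2.49-fold.

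Saa3 and Saa4, the other members of the cluster, differed less between the genotypes. Saa3 stood at 4.03, 5.54 and 4.50 CPM in Zpbp2 KO livers and at 3.56, 2.11 and 2.99 CPM in WT livers, without overlap, at a log2 fold change of 0.70 ± 0.237. Saa4, the constitutive member, stood at 219, 308 and 221 CPM in Zpbp2 KO livers and at 163, 211 and 222 CPM in WT livers. WT replicate 3 of Saa4 lay above Zpbp2 KO replicates 1 and 3, so the groups overlapped, at a log2 fold change of 0.33 ± 0.171. Saa1 gave 22.8, 19.6 and 30.5 counts per 100 Saa4 counts in Zpbp2 KO libraries and 10.02, 12.0 and 12.8 in WT libraries, again without overlap.

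**Figure D1:**
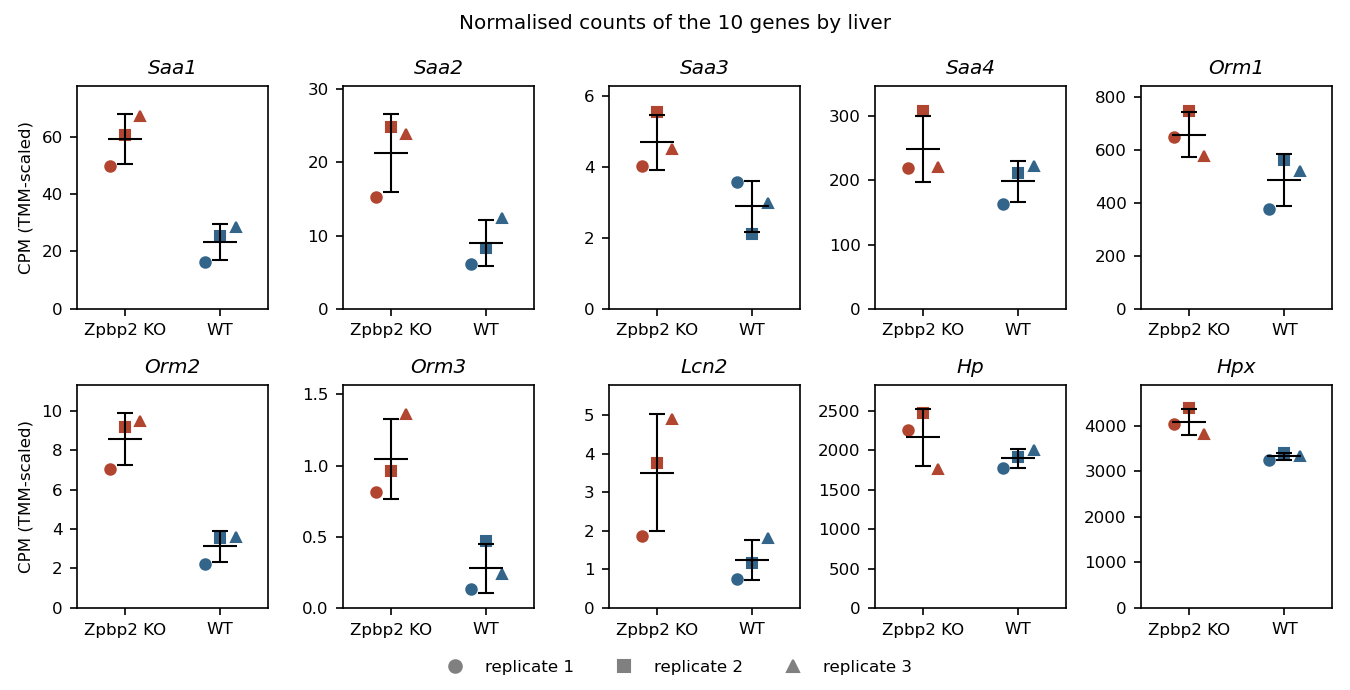
Level of each of the 10 genes in each liver, in CPM on a linear axis from 0, with Zpbp2 KO left of WT; points are livers, and bars show the mean ± SD of 3. The groups overlap in Saa4 and Hp, and in the other 8 genes each Zpbp2 KO liver lies above each WT liver. Over all tested genes 5.56% did so, and the 10 genes were chosen on this contrast.

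Among the orosomucoids, all on chromosome 4, the abundant copy differed less between the genotypes than the scarce ones. Orm1, the main hepatic copy, stood at 650, 747 and 577 CPM in Zpbp2 KO livers and at 376, 563 and 522 CPM in WT livers. The lowest Zpbp2 KO liver was just above the highest WT liver, and the log2 fold change was 0.43 ± 0.166. Orm2 had 337, 418 and 495 counts in Zpbp2 KO livers and 117, 191 and 137 counts in WT livers, which were 7.04, 9.16 and 9.48 CPM in Zpbp2 KO livers and 2.23, 3.57 and 3.59 CPM in WT livers. The groups were far apart, with a log2 fold change of 1.45 ± 0.228. Orm3 was the scarcest of the 10, with 39, 44 and 71 counts in Zpbp2 KO livers and 7, 25 and 9 counts in WT livers. Its log2 fold change was 1.89 ± 0.441. With a library left out it ranged from 1.53 without WT replicate 1 to 2.53 without WT replicate 2, the WT livers with the least and the most Orm3.

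Orm2 gave 1.08, 1.23 and 1.64 counts per 100 Orm1 counts in Zpbp2 KO libraries, against 0.593, 0.633 and 0.687 in WT libraries. The share that Orm2 took relative to Orm1 thus did not overlap between the genotypes. For Orm3 the ratio was 0.125, 0.129 and 0.236 counts per 100 Orm1 counts in Zpbp2 KO libraries and 0.0355, 0.0829 and 0.0452 in WT libraries. Orm1 and Orm2 transcripts were identical at 705 of 775 aligned bases (91.0%), and 47 of 676 windows of 100 bases in either (6.95%) were found in the other. Orm3 shared 0 of 674 windows. Levels of the scarce copies are therefore uncertain where the counting could split reads between copies, and this was not tested. Summed over the 3 copies, orosomucoid transcripts stood at 658, 758 and 588 CPM in Zpbp2 KO livers and at 379, 567 and 526 CPM in WT livers, so the sum follows Orm1.

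**Figure D2:**
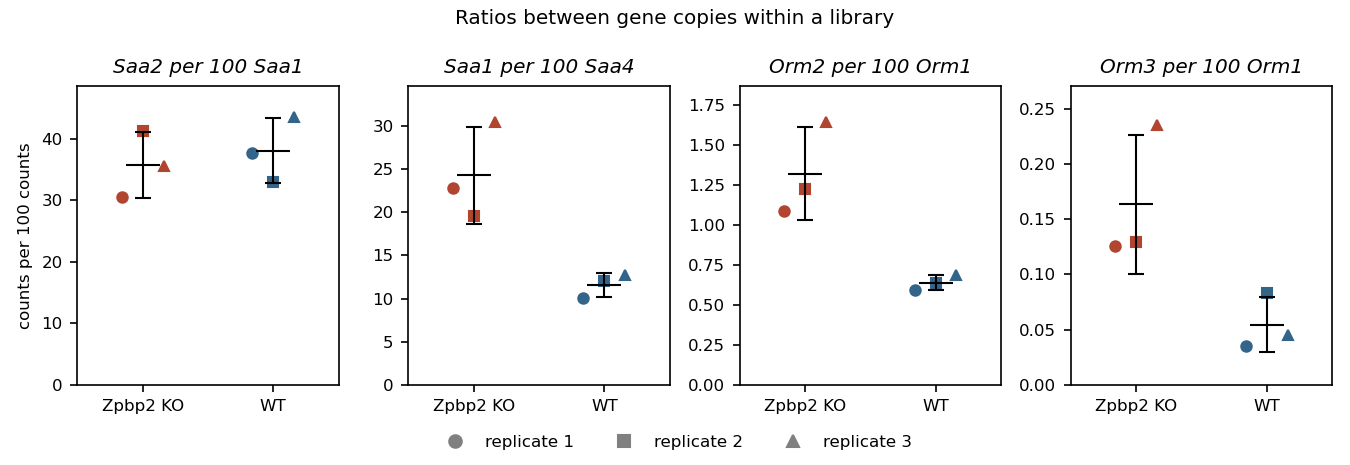
Counts of one gene per 100 counts of another within a library, with Zpbp2 KO left of WT; points are livers, and bars show the mean ± SD of 3. Saa2 per 100 Saa1 overlaps between the groups (30.5 to 41.2 in Zpbp2 KO, 32.9 to 43.5 in WT), while Saa1 per 100 Saa4 and both orosomucoid ratios do not.

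Lcn2, on chromosome 2, had 90, 172 and 256 counts in Zpbp2 KO livers and 40, 63 and 69 counts in WT livers. On the CPM scale it stood at 1.88, 3.77 and 4.90 in Zpbp2 KO livers and at 0.762, 1.18 and 1.81 in WT livers. The lowest Zpbp2 KO liver was only slightly above the highest WT liver, and the spread among Zpbp2 KO livers was wide, with a mean of 3.52 ± 1.53 CPM in Zpbp2 KO and 1.25 ± 0.526 CPM in WT livers (SD, n = 3 each). The log2 fold change was 1.51 ± 0.415, and it ranged from 1.19 without Zpbp2 KO replicate 3 to 1.84 without WT replicate 3.

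The scavengers of haemoglobin and haem, which were the most abundant of the 10, had the smallest log2 fold changes. Hpx, on chromosome 7 outside the Saa cluster, stood at 4035, 4384 and 3818 CPM in Zpbp2 KO livers and at 3239, 3393 and 3341 CPM in WT livers. The groups did not overlap, and the log2 fold change was 0.29 ± 0.101. Hp, on chromosome 8, stood at 2254, 2478 and 1765 CPM in Zpbp2 KO livers and at 1772, 1916 and 2009 CPM in WT livers. Zpbp2 KO replicate 3 had the lowest Hp of all 6 livers, and the log2 fold change was 0.19 ± 0.138. Offsets for GC content and transcript length left a log2 fold change of 0.05 for Hp and 0.18 for Hpx. The summed level of 12 hepatocyte markers was also higher in every Zpbp2 KO liver, at 116576, 120181 and 116899 CPM in Zpbp2 KO livers and at 113948, 105130 and 108977 CPM in WT livers. Albumin made up most of that sum, and on its own it overlapped between the groups (73951 to 76934 CPM in Zpbp2 KO, 66065 to 75135 CPM in WT). The median log2 fold change of those markers was 0.19, against 0.19 for Hp and 0.29 for Hpx, and their part in the levels of Hp, Hpx and the other genes was not tested.

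All 10 genes passed the filter on low counts, Orm3 through its Zpbp2 KO libraries, where it had over 10 counts in each. Of the 10, 8 had no overlap with Zpbp2 KO higher and 0 were called higher by edgeR's quasi-likelihood test at a Benjamini-Hochberg adjusted p below 0.05. Over 14686 tested genes, 5.56% lay without overlap higher in Zpbp2 KO livers and 6.01% lower, and edgeR called 0% higher and 0.0136% (2 genes) lower. At an unadjusted p below 0.05 edgeR had 8 of the 10 as higher, against 2.86% of all genes higher and 2.93% lower. DESeq2 called 5 of the 10 higher (Saa1, Saa2, Orm2, Orm3 and Lcn2), against 0.184% of all genes higher and 0.334% lower, and limma-voom called 0 of the 10. The 10 genes had a median log2 fold change of 0.98, and all tested genes one of 0.01. The members were chosen on this same contrast, so these counts are given beside the background and nothing is read from them.

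The 10 genes did not vary alike from liver to liver. In a split made after the values were seen, Saa1, Saa2, Orm2, Orm3 and Lcn2 had their lowest value among Zpbp2 KO livers in replicate 1 and their lowest among WT livers in replicate 1, as did Saa4. In Saa1, Orm2, Orm3 and Lcn2 the highest of all 6 livers was Zpbp2 KO replicate 3, and in Saa2 it was Zpbp2 KO replicate 2. In Saa3, Saa4, Orm1, Hp and Hpx the highest of all 6 was Zpbp2 KO replicate 2. Orm1, Hp and Hpx, the most abundant hepatocyte products of the 10, had Zpbp2 KO replicate 3 as the lowest Zpbp2 KO liver. Saa3 departed from its cluster in WT livers, where replicate 1 was the highest for Saa3 and the lowest for Saa1, Saa2 and Saa4.

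**Figure D3:**
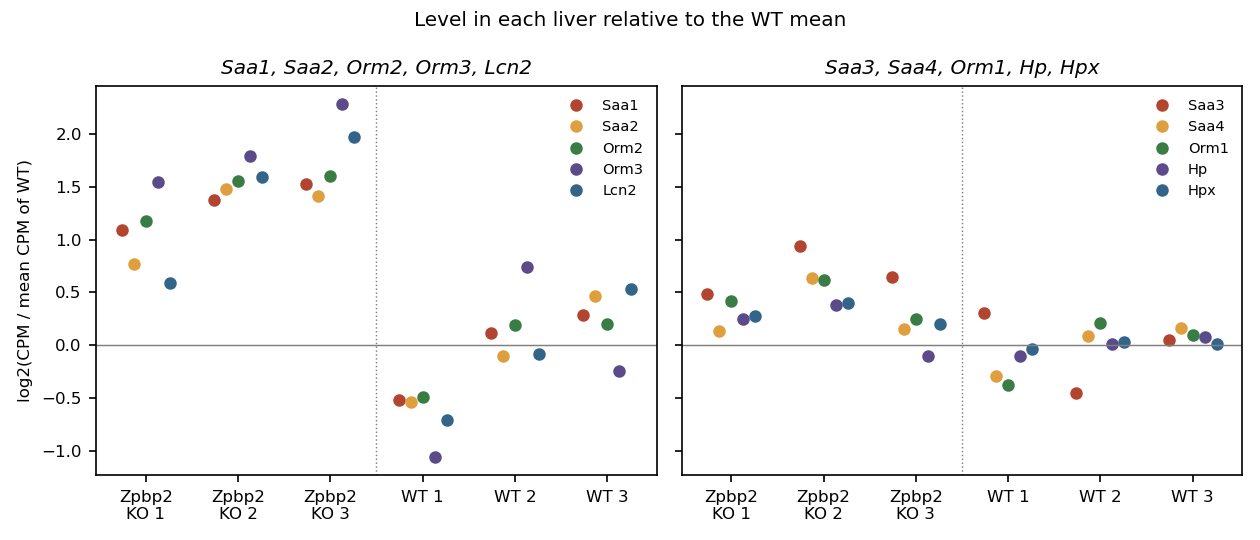
Level in each liver as log2 of its CPM over the mean CPM of WT livers, with 0 marking that mean; each colour is a gene, livers of Zpbp2 KO stand left of those of WT, and the 2 panels split the genes as in the text. On the left, Saa1 stands at 1.09 to 1.53 in Zpbp2 KO livers and at -0.52 to 0.29 in WT livers, and on the right Hp stands at -0.11 to 0.38 in Zpbp2 KO livers and at -0.10 to 0.08 in WT livers.

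Across the 6 libraries, log2 CPM of Saa1 ran closest to Orm2 (Pearson r = 0.996) and Saa2 (0.971), and least with Hp (0.476). Lcn2 had r = 0.979 with Saa2 and 0.328 with Hp. These are descriptions over 6 libraries that share a split into 2 genotypes, which by itself lifts a correlation. Outside the 10 genes, and over the 11808 genes whose mean log2 CPM was 0 or more, Chrna4, a nicotinic acetylcholine receptor subunit, was most like Saa1 (r = 0.994), followed by Adhfe1, a mitochondrial hydroxyacid-oxoacid transhydrogenase (0.993), Rnf31, a catalytic subunit of the linear ubiquitin ligase (0.977), Car5a, a mitochondrial carbonic anhydrase (0.967), and Clic5 (0.967). Chrna4 stood at 17.8, 20.8 and 21.9 CPM in Zpbp2 KO livers and at 4.31, 6.65 and 9.12 CPM in WT livers.

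For Orm2 the nearest genes were Adhfe1 (r = 0.992), Rnf31 (0.987), Chrna4 (0.986), the kinase gene Map2k3 (0.975) and the coagulation factor gene F7 (0.972). For Lcn2 they included Tap1, a peptide transporter of antigen presentation (0.996), Iigp1, an interferon-inducible GTPase (0.979), Pgd (0.978) and Zfp579 (0.975). Tap1 stood at 34.0, 41.0 and 47.4 CPM in Zpbp2 KO livers and at 24.8, 27.7 and 32.8 CPM in WT livers. Saa1 and Orm2 shared 3 of their 5 nearest genes, and Lcn2 shared 0 with either.

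Levels between genes were compared as CPM per kilobase of the coding transcript (GENCODE M21). The level was highest for Hpx (2721 ± 190 in Zpbp2 KO, 2218 ± 52.2 in WT livers, SD, n = 3 each), followed by Hp (1610 ± 271 in Zpbp2 KO, 1412 ± 89.1 in WT) and Orm1 (849 ± 111 in Zpbp2 KO, 629 ± 127 in WT). Saa4 came next at 119 ± 24.5 in Zpbp2 KO and 94.9 ± 15.2 in WT livers. Saa1 followed at 97.2 ± 14.4 in Zpbp2 KO and 38.3 ± 10.4 in WT livers. The single-liver ranges of Saa4 and Saa1 thus overlapped in Zpbp2 KO and not in WT. That comparison rests on transcript lengths of 2094 bases for Saa4 and 609 for Saa1. In plain CPM, Saa4 stood above Saa1 in every liver. Saa2 stood at 35.2 ± 8.77 in Zpbp2 KO and 14.8 ± 5.21 in WT livers.

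The lower end of the order held Orm2, at 11.0 ± 1.71 CPM per kilobase in Zpbp2 KO and 4.04 ± 1.00 in WT livers, and Saa3, at 8.46 ± 1.39 in Zpbp2 KO and 5.20 ± 1.32 in WT livers. These 2 overlapped in both genotypes, with Orm2 above Saa3 in the mean in Zpbp2 KO and below it in WT livers. Lcn2 (3.84 ± 1.67 in Zpbp2 KO, 1.36 ± 0.575 in WT) and Orm3 (1.35 ± 0.364 in Zpbp2 KO, 0.360 ± 0.221 in WT) were the scarcest. No other neighbours in either order overlapped between their livers.

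Other positive acute phase genes, from a list of 24 written without the 10, had a median close to that of all genes. All 24 were tested, 15 lay above 0, and their median log2 fold change was 0.07, against 0.01 over all tested genes. Of all tested genes 52.9% lay above 0, which is the share to set beside each such count in the lists below. Neither edgeR nor DESeq2 called any of them (0 each). By edgeR's unadjusted p below 0.05, 1 gene was higher and 1 was lower. Steap4, a metalloreductase induced by interleukin-6, stood at 111, 98.0 and 104 CPM in Zpbp2 KO livers and at 84.5, 80.5 and 90.9 CPM in WT livers (log2 fold change 0.29 ± 0.0960, edgeR adjusted p = 0.798). The groups did not overlap in Steap4.

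Further genes of that list were named after their values were seen. The log2 fold change was 0.13 ± 0.102 for Serpina3n, a protease inhibitor, and 0.33 ± 0.183 for Apcs, serum amyloid P. It was 0.09 ± 0.0991 for Crp, C-reactive protein, and 0.16 ± 0.299 for Hamp, the iron hormone hepcidin. The fibrinogen chains Fga, Fgb and Fgg stood at -0.04 ± 0.134, 0.10 ± 0.146 and 0.06 ± 0.153, complement C3 at -0.07 ± 0.146 and the endotoxin-binding protein gene Lbp at -0.12 ± 0.0909. In Serpina3n, Apcs, Crp, Hamp, the fibrinogen genes, C3 and Lbp the groups overlapped. They overlapped also in Hamp2 (0.58 ± 0.403). Of the list of 24, 2 genes lay without overlap higher and 2 lower, against 5.56% and 6.01% of all tested genes. Among these were Serpina3m (0.27 ± 0.123, higher) and Cfb (-0.14 ± 0.0878, lower).

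Negative acute phase genes, which fall in a full acute phase response, were also counted. All 9 were tested and all 9 were above 0, against 52.9% of all tested genes, at a median of 0.15 on the log2 scale. Alb, Ttr and Apoa1 of this list are also among the hepatocyte markers, so the lists are not separate. EdgeR and DESeq2 called 0 of them, and 0 had an unadjusted edgeR p below 0.05. Fetub, fetuin-B, stood at 464, 567 and 467 CPM in Zpbp2 KO livers and at 409, 423 and 443 CPM in WT livers (0.23 ± 0.109, edgeR adjusted p = 0.798). Apoa1, the main protein of high-density lipoprotein, stood at 10165, 11638 and 8181 CPM in Zpbp2 KO livers and at 8445, 7786 and 8288 CPM in WT livers (0.29 ± 0.143, edgeR adjusted p = 0.798). The groups did not overlap in Fetub, whereas in Apoa1 Zpbp2 KO replicate 3 lay below WT replicates 1 and 3. Offsets for GC content and transcript length left a log2 fold change of 0.13 for Fetub and 0.13 for Apoa1.

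The cytokines, receptors and transcription factors that drive these genes were followed next. Of 27 listed genes 23 were tested, 8 lay above 0, and the median log2 fold change was -0.05. EdgeR called 0 of them, its unadjusted p was below 0.05 for 1 gene (lower), and DESeq2 called 1, Il1b, lower. Il1b, interleukin-1 beta, had 58, 41 and 89 counts in Zpbp2 KO livers and 375, 311 and 189 counts in WT livers. It stood at 1.21, 0.899 and 1.70 CPM in Zpbp2 KO livers and at 7.15, 5.81 and 4.95 CPM in WT livers, with every Zpbp2 KO liver below every WT liver. Its log2 fold change was -2.23 ± 0.270 (edgeR adjusted p = 0.106, DESeq2 adjusted p = 3.32e-12).

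Il6, Tnf, Osm and Lif were too low to be tested, with Il6 between 0 and 0.0836 CPM in Zpbp2 KO and between 0 and 0.0572 CPM in WT livers. Of genes named after their values were seen, Stat3 stood at -0.11 ± 0.117, its feedback inhibitor Socs3 at -0.27 ± 0.355, Cebpb at -0.03 ± 0.132 and Cebpd at 0.35 ± 0.237 on the log2 scale. The glucocorticoid-induced list had 4 of 7 tested genes above 0 and a median of 0.09, with 0 called by edgeR or DESeq2, and the unadjusted edgeR p was below 0.05 for 2 genes, both lower. Those 2 were Dusp1, a MAP kinase phosphatase (-1.13 ± 0.348, edgeR adjusted p = 0.718), and Tat, tyrosine aminotransferase (-0.43 ± 0.148, edgeR adjusted p = 0.798), and the groups overlapped in both.

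Receptors and partners of the 10 proteins, such as the haptoglobin receptor Cd163 and the hemopexin receptor Lrp1, had 5 of 12 tested genes above 0 and a median of -0.03. EdgeR and DESeq2 called 0 of the 12, and 1, lower, had an unadjusted edgeR p below 0.05. Lrp2, megalin, an endocytic receptor that takes up lipocalin 2 in the kidney, stood at 1.40, 2.13 and 1.69 CPM in Zpbp2 KO livers and at 2.36, 4.69 and 3.09 CPM in WT livers (-0.96 ± 0.294, edgeR adjusted p = 0.714). Apob stood at -0.33 ± 0.168 (edgeR adjusted p = 0.798). The haem-degrading enzyme gene Hmox1, named after its values were seen, stood at -0.13 ± 0.274.

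**Figure D4:**
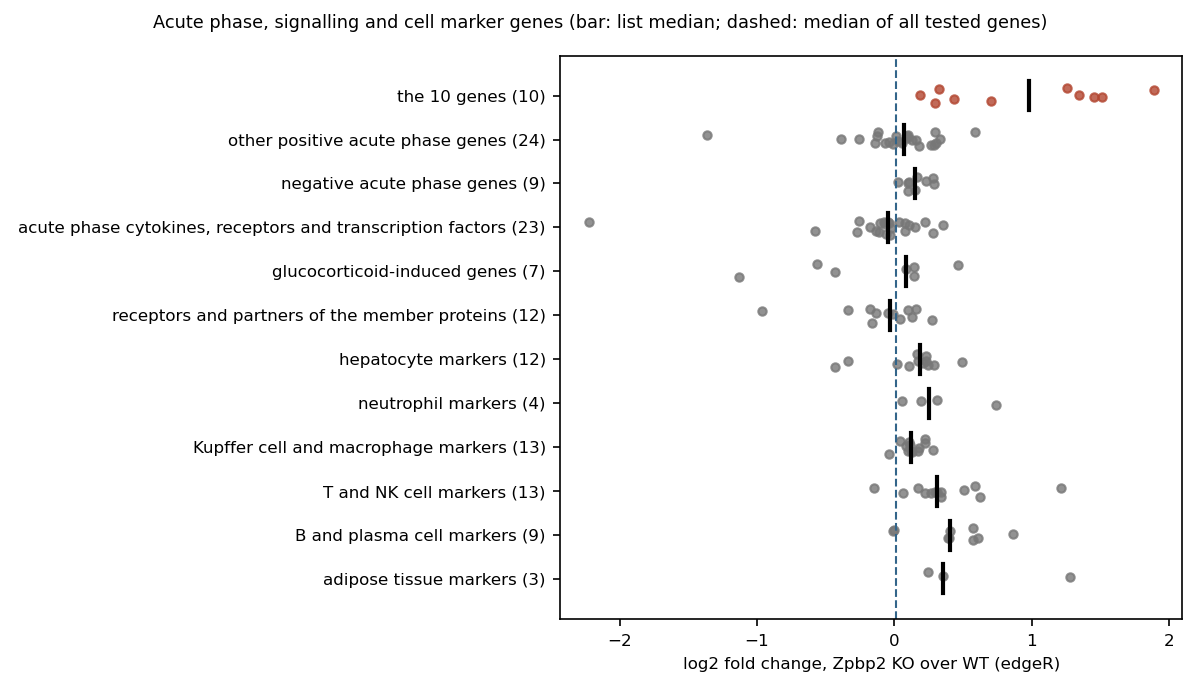
Log2 fold change of Zpbp2 KO over WT for each tested gene of each list, with the number tested in brackets; black bars are list medians and the dashed line is the median of all tested genes (0.01). The 10 genes, chosen on this contrast, lie between 0.19 and 1.89, and the other acute phase lists have medians of 0.07 and 0.15.

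Lcn2 and Saa3 are also made by neutrophils and macrophages, so markers of these cells are given beside them. Of 13 neutrophil markers 4 were tested and all 4 lay above 0 (median 0.25), with 0 called by edgeR or DESeq2 and 0 at an unadjusted p below 0.05. Their summed level was 3.48 to 7.32 CPM in Zpbp2 KO livers and 3.77 to 4.69 CPM in WT livers. The defining markers Mpo and Ly6g had 0 counts in all 6 libraries. The highest sum, 7.32 CPM, was in Zpbp2 KO replicate 1, and S100a9 stood highest there too, at 1.25 CPM (log2 fold change 0.74 ± 0.458). Csf3r, at 2.02 to 3.35 CPM over all livers, made up much of the sum, and its log2 fold change was 0.31 ± 0.249. The part of neutrophils in the level of Lcn2 was not tested.

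Of 13 Kupffer cell and macrophage markers all 13 were tested, 12 lay above 0 (median 0.12), and edgeR and DESeq2 called 0, with 0 at an unadjusted p below 0.05. Their summed level was 569, 193 and 613 CPM in Zpbp2 KO livers and 490, 387 and 343 CPM in WT livers. The lowest sum, 193 CPM, was in Zpbp2 KO replicate 2, while Zpbp2 KO replicates 1 and 3 lay above every WT liver. The part of macrophages in the level of Saa3 was not tested. Cd5l and C1qb had the smallest p of the list, and their log2 fold changes were 0.28 ± 0.410 and 0.22 ± 0.364.

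T and NK cell markers had 12 of 13 tested genes above 0 (median 0.31) and summed to 6.55 to 8.60 CPM in Zpbp2 KO livers and to 5.12 to 7.03 CPM in WT livers. B and plasma cell markers had 7 of 9 above 0 (median 0.41) and summed to 17.7 to 21.5 CPM in Zpbp2 KO livers and to 11.6 to 21.2 CPM in WT livers. Much of that sum was Ighm, named after its values were seen, at 9.01 to 10.9 CPM in Zpbp2 KO and 5.34 to 10.9 CPM in WT livers. EdgeR and DESeq2 called 0 of either list, and 1 gene, Pax5 (0.86 ± 0.342), had an unadjusted edgeR p below 0.05. Trbc1 stood at 1.21 ± 0.535, Lck at 0.51 ± 0.291 and Fcer2a at 0.57 ± 0.278. The groups overlapped in Trbc1, Lck and Fcer2a and not in Pax5. Counts were low, with 21, 8 and 28 for Trbc1 in Zpbp2 KO livers and 14, 5 and 5 in WT livers. Pax5 had 27, 38 and 21 counts in Zpbp2 KO livers and 16, 18 and 13 in WT livers. Of 7 adipose markers 3 were tested and lay above 0 (median 0.35), among them Fabp4 (0.35 ± 0.227) and Car3 (0.24 ± 0.166), with 0 called by either tool and 0 below an unadjusted edgeR p of 0.05. The adipose sum was 2887 to 4500 CPM in Zpbp2 KO livers and 2943 to 3452 CPM in WT livers. Nearly all of it was Car3, at 2879 to 4493 CPM in Zpbp2 KO and 2937 to 3446 CPM in WT livers. The other tested gene, Cfd, stood at 1.28 ± 1.09. Adipoq, adiponectin, had 26, 5 and 0 counts in Zpbp2 KO livers and 6, 0 and 0 counts in WT livers. Cfd and Adipoq were named after their values were seen. Hepatocyte markers had 10 of 12 above 0 (median 0.19), with 0 called by either tool and an unadjusted edgeR p below 0.05 for Apoh (higher) and Tat (lower). Their summed level did not overlap between the groups, as given beside Hp and Hpx. Of the 12, 3 lay without overlap higher (Apoh, Ass1 and Hpd, the last 2 named after their values were seen) and 0 lower. Over all tested genes the shares without overlap were 5.56% higher and 6.01% lower. Apoh, an abundant plasma protein gene, had the smallest p of that list, at 2613 ± 339 CPM in Zpbp2 KO and 1856 ± 115 CPM in WT livers (SD, n = 3 each), and its log2 fold change was 0.49 ± 0.122 (SE, edgeR adjusted p = 0.603). The part of these markers in the levels of the 10 genes was not tested.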

How the data were processed

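Livers of 3 Zpbp2 KO and 3 WT males were sequenced from 250 ng of total RNA after poly(A) selection with a directional kit, as read pairs of 100 cycles, per the labels' protocols. The deposited table holds raw counts per Ensembl gene ID, 1 column per library. STAR, Picard, HTSeq and the build mm9 are named per the submitters' processing notes, with no version, and the annotation and strand setting used for counting were not given. Columns were matched to samples by title. Symbols came from GENCODE M21 and RefSeq (32919 of 37991 IDs, 86.6%).

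Genes were kept by filterByExpr (minimum count 10), scaled by TMM and tested with edgeR 4.0.16 (quasi-likelihood, two-sided, R 4.3.3) over 14686 genes with Benjamini-Hochberg adjustment, 3 livers a group, no covariate. SEs are those implied by the test. Alternatives were DESeq2 1.42.0, limma-voom (limma 3.58.1), other scalings and filters, a replicate block, offsets for transcript length and GC content (97.0% of tested genes had both) and leaving out each library. Log2 CPM used a prior count of 2. The fits were checked on simulated data. The labels' protocols give 3 males a genotype, and p-values set the difference between genotypes against the spread between libraries of a genotype. Transcript lengths and promoters came from reference tables of another build than the counts and served for names, lengths and sequences only.

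The members, gene lists and tests were chosen with earlier results of these data known. From each list the text names the genes called by edgeR or DESeq2, or otherwise the 2 with the smallest edgeR p; the genes most like a member are the 5 with the highest correlation. Any other gene is stated as chosen after its values were seen. Results for 2 genes that these rules select are not reported here.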

Additional observations from a re-analysis of the deposited data

How the results depend on the processing

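Each of the 10 genes kept a log2 fold change above 0 under all 14 alternatives, from 1.14 to 1.49 for Saa1, 1.05 to 1.54 for Saa2, 0.52 to 0.89 for Saa3, 0.15 to 0.41 for Saa4, 0.27 to 0.55 for Orm1, 1.26 to 1.58 for Orm2, 1.53 to 2.53 for Orm3, 1.19 to 1.84 for Lcn2, 0.05 to 0.32 for Hp and 0.18 to 0.34 for Hpx. DESeq2 called 5 of the 10, 1 gene of the other lists (Il1b), 27 genes higher and 49 lower. With no filter on low counts edgeR called 1 of the 10 (Saa1), 1 gene of the other lists, 3 genes higher and 9 lower. The other alternatives called 0 of the 10. With each library left out in turn, edgeR called 0 to 1 genes higher and 2 to 4 lower. Cd5l ran from -0.011 to 0.67 and C1qb from -0.051 to 0.58 with each library left out. Both were below 0 without Zpbp2 KO replicate 3 and highest without Zpbp2 KO replicate 2. With the replicate block edgeR called 0 genes higher, 2 lower and 0 of the 10. The block lowered the adjusted p of Saa1 (to just above 0.05), Saa2, Orm2, Orm3 and Lcn2. It raised that of Saa3, Saa4, Orm1, Hp and Hpx. Nothing is read from these shifts, as the members were chosen on this contrast. Same-numbered livers did not deviate together in all pairs (correlations of 0.142, 0.197 and -0.237 for numbers 1, 2 and 3), and not every library correlated best with its own number, so the numbers were not taken as pairs. With 3 livers a group and 7 to 71 counts of Orm3 in a library, the size of the Orm3 difference is the least certain. The causes of these changes were not tested.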
